A study of Mus musculus with 6 samples.

Results

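Integrins, cadherins and immunoglobulin (Ig) superfamily cell adhesion molecules were followed in the spinal cord of mice carrying G93A-mutant human superoxide dismutase 1 (SOD1), an enzyme whose mutations cause a familial type of amyotrophic lateral sclerosis. Members were the genes whose single annotated symbol begins with Itga, Itgb, Icam or Pcdh, or with Cdh and a digit, together with Vcam1, Ncam1, Ncam2, L1cam and Pecam1. The array held 43 such genes on 67 probe sets, out of 8251 genes on 10833 probe sets with 1 symbol. The probe set with the highest mean intensity stands for its gene, and 20 of the 43 genes were bright enough to be tested. By class, 2 of 8 leukocyte integrins, 3 of 7 other integrin alpha chains, 3 of 4 other beta chains, 4 of 8 Ig molecules, 4 of 11 classical cadherins, 1 of 2 other cadherins, both protocadherins and the integrin-binding protein Itgb1bp1 were tested.

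Each array carried labelled poly(A) RNA of 4 spinal cords and was hybridised once. The G93A-SOD1 mice have the strain label B6SJL-G93A-SOD1H at 110 days and B6SJL-G93A-SOD1 at 75 days. They are described as trembling and partly paralysed at the older age and as without symptoms at the younger one. The WT-SOD1 mice, a line with the wild-type human protein and no disease phenotype, were taken at the same ages. No strain label is given for them at 110 days, and at 75 days it names B6SJL. The nontransgenic mice have the strain label B6SJL at both ages. With 1 array per genotype and age, the nontransgenic and WT-SOD1 arrays of an age are called disease-free, and only they give a spread. Variation among animals of 1 genotype is thus not part of the p-values below, which rest on how the nontransgenic and WT-SOD1 arrays differed. In bulk cord RNA, fewer cells of a type and less RNA per cell cannot be told apart.

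Integrins are pairs of an alpha and a beta chain that bind extracellular matrix or counter-receptors on other cells and connect them to the cytoskeleton. The beta 2 chain pairs with some of the alpha chains of leukocytes, and in the central nervous system microglia are its main carriers. Classical cadherins bind their own kind on the neighbouring cell and are held by catenins. Ig adhesion molecules either bind their own kind, as Ncam1 does in neural tissue, or serve as integrin counter-receptors on endothelium, as Vcam1 and Icam1 do.

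The promoters of 3 integrin genes with their highest value on the G93A-SOD1 array at 110 days are printed. Itgb5 was the integrin that passed the test, and Itgax and Itgam, which did not pass or were not tested, encode alpha partners of the beta 2 chain. Each window is the 250 bases before a gene start in a RefSeq promoter table, on the plus strand of GRCm38.p6. The outermost annotated start of Itgax lies inside its window, near the 3′ end. Capitals mark the GC box GGGCGG, the letters bound by Sp factors, and GAGGAA, a core bound by Ets factors such as the myeloid factor PU.1, on either strand. The windows are chr16:33829415-33829664 for Itgb5, chr7:128129300-128129549 for Itgax and chr7:128062390-128062639 for Itgam.
Itgb5: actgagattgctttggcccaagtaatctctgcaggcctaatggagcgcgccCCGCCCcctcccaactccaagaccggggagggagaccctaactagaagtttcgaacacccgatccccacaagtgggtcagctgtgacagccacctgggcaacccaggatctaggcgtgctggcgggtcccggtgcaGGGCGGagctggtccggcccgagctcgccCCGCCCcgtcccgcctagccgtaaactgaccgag
Itgax: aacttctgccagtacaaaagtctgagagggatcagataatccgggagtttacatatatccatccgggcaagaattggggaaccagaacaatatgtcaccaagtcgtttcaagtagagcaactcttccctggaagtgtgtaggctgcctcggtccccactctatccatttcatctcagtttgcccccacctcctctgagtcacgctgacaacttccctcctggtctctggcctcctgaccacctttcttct
Itgam: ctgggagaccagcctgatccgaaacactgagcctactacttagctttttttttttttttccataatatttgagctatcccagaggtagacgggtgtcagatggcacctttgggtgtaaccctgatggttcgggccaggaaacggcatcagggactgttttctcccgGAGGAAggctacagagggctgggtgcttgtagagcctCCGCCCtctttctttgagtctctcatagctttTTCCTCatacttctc
The Itgb5 window held 3 matches to the GC box and 0 to the Ets core. The Itgam window held 1 match to the GC box and 2 to the Ets core, while the Itgax window held neither. Over 32851 windows of the same length, 32.7% held the GC box and 23.3% the Ets core. Of 25 searched windows of adhesion genes, 15 held the GC box (60%) and 10 the Ets core (40%). Some windows of adhesion genes were left out of this search, while the 32851 windows had no such exclusion. The percentages thus do not rest on like sets and are not compared. A match describes these letters only. In the table used, 23 of the 43 genes had a promoter, a count that includes genes left out of the search.

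Intensities are linear, with a floor at 31.0 below which values have no order. Differences are log2 of floored values, and SE is limma's moderated standard error. Median intensity lay between 77.7 and 80.9 on the 6 arrays. The WT-SOD1 array at 110 days and the nontransgenic array at 75 days stood apart, with geometric mean bacterial spike-in intensities of 739.7 and 548.7 against 299.1 to 371.3 on the others. The summed intensity of 7 cerebellar markers was 3424 and 2909 on them. On the other arrays it was 1074 in G93A-SOD1 cord at 110 days and 1010 at 75 days, 1433 in WT-SOD1 cord at 75 days and 1910 in nontransgenic cord at 110 days. The G93A-SOD1 arrays were thus the lowest, and all 6 tested cerebellar markers lay below the disease-free range at both ages, with 0 past the test. The mouse Sod1 probe set read 1716 on the G93A-SOD1 array at 110 days, 1906 on the WT-SOD1 array and 1498 on the nontransgenic array. Its 75-day readings were 1738, 1583 and 1037 on the same genotypes, so that both transgenic arrays lay above the nontransgenic one at each age. WT-SOD1 against nontransgenic differed by 0.48 ± 0.19 for it, with a limma adjusted p of 1. In that comparison the SE of 0.19 was shared by all probe sets and does not measure the spread of Sod1 itself.

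At 110 days 1 of the 20 tested adhesion genes, Itgb5, rose in G93A-SOD1 cord and 0 fell (limma, adjusted p under 0.05 over all 6737 tested probe sets). None of the 20 had entered the test through the 110-day G93A-SOD1 array alone. Over all tested probe sets 1.38% rose and 0.134% fell. Without adjustment 3 adhesion genes were higher and 0 lower at p under 0.05, against 315 and 378 probe sets overall. Differences ran from -0.39 to 0.90 with a median of 0.08, beside -0.02 over all tested probe sets. Leaving out the nontransgenic array of that age put the median of the 20 genes at -0.02. The G93A-SOD1 value lay above all 4 disease-free arrays for 6 of the 20 genes and below them for 4, where all probe sets gave 16.9% above and 27% below.

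Itgb5, the beta chain that pairs with alpha v to bind vitronectin, read 579 on the G93A-SOD1 array at 110 days, against 331 on the WT-SOD1 array and 291 on the nontransgenic array of that age. At 75 days it read 314 on the G93A-SOD1 array, against 294 and 311 on the WT-SOD1 and nontransgenic arrays. The 110-day G93A-SOD1 array was the high one by 0.81 log2 units, and the other 5 arrays lay close together. The difference at 110 days was 0.90 ± 0.14, a 1.86-fold higher intensity (limma, adjusted p = 0.0301). At 75 days it was 0.05 ± 0.14 (adjusted p = 0.936), and its change between the ages was 0.85 ± 0.20 (adjusted p = 0.307). The change passed without the WT-SOD1 array of 110 days, at 0.94 (adjusted p = 0.0478), and not without the nontransgenic array of that age, at 0.75 (adjusted p = 0.0799). Without the WT-SOD1 array of 110 days the difference was 0.99 (adjusted p = 0.00509), and without the nontransgenic array it was 0.81 (adjusted p = 0.0155). With a floor at the 40th percentile the adjusted p was 0.071 and with no filter on level 0.322, at the same difference of 0.90. The second Itgb5 probe set did not follow: it read 96.0 on the G93A-SOD1 array at 110 days and 86.8 to 94.5 on the 4 disease-free arrays, a difference of 0.07 (adjusted p = 0.986). Its identifier marks it as one that can cross-hybridise.

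**Figure D1:**
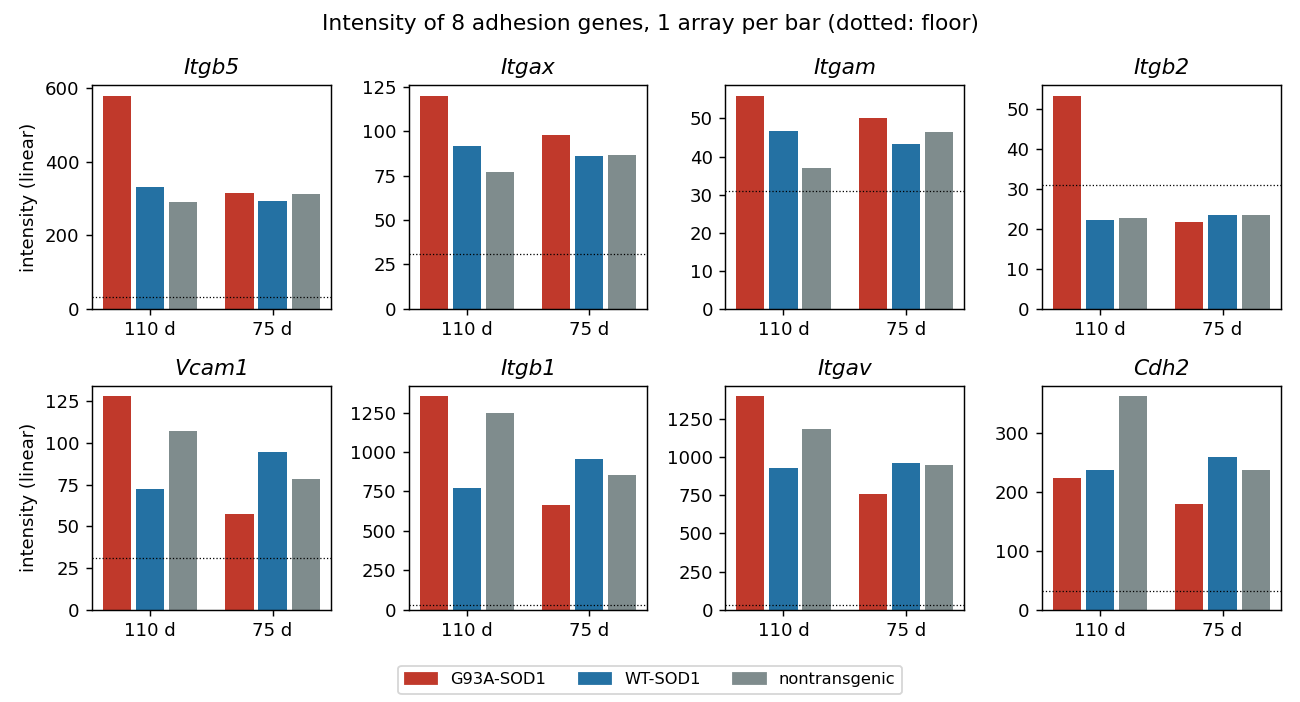
Linear intensity (vertical axes, starting at 0) of 8 adhesion genes on the 6 arrays, with 110 and then 75 days along each horizontal axis and bars in the order G93A-SOD1, WT-SOD1 and nontransgenic. Each bar is 1 array, and the dotted line is the floor of 31.0. Itgb5 stands out at 579 and Itgb2 at 53.3 on the G93A-SOD1 array at 110 days.

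Among the leukocyte integrins, none passed the test at either age, and 6 of the 8 were too dim to be tested. Itgb2, the beta chain shared by some leukocyte alpha chains, was at 53.3 on the G93A-SOD1 array at 110 days. At that age it was at 22.2 on the WT-SOD1 array and 22.6 on the nontransgenic array. At 75 days it was at 21.6 on the G93A-SOD1 array, 23.4 on the WT-SOD1 array and 23.5 on the nontransgenic array. It thus lay over the floor on 1 array and at or under it on 5. Against the floor, the 110-day G93A-SOD1 intensity was at least 1.72-fold higher. No p is given for it, since all disease-free arrays sit at the floor and leave no spread.

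Itgax, the alpha x chain of dendritic cells and activated microglia, read 120 in G93A-SOD1 cord at 110 days, against 91.5 in WT-SOD1 and 76.8 in nontransgenic cord. The 75-day readings were 97.8 in G93A-SOD1 cord, against 86.2 and 86.3 in WT-SOD1 and nontransgenic cord. The G93A-SOD1 array was the highest of the 3 at each age, and neither value overlapped the disease-free range. The differences of 0.51 ± 0.15 at 110 days and 0.18 ± 0.15 at 75 days did not pass (limma, adjusted p = 0.247 and 0.721). Without the WT-SOD1 array of 110 days, that age's difference was 0.64 and passed (adjusted p = 0.0226), and without the nontransgenic array of that age it was 0.39 and did not pass (adjusted p = 0.183). Itgam, the alpha m chain of microglia and macrophages, was dimmer: 56.0 in G93A-SOD1 cord at 110 days, 46.6 in WT-SOD1 and 37.0 in nontransgenic cord. Its 75-day values were 50.0, 43.2 and 46.4 in the same genotypes. Both G93A-SOD1 values of Itgam lay above every disease-free array, which read at most 46.6. In a fit with no filter on level its 110-day difference was 0.43 ± 0.19 (adjusted p = 0.855).

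The other leukocyte chains showed no such excess at 110 days. Itgal, the alpha l chain of lymphocytes, read 43.1 in G93A-SOD1 cord, 45.6 in WT-SOD1 and 41.7 in nontransgenic cord. Itgb2l, a gene resembling Itgb2, read 39.8, 42.1 and 35.4 on the same arrays. Itgb7, the beta chain of gut-homing lymphocytes, read 167, 186 and 169, a difference of -0.09 (adjusted p = 0.986) that became 0.03 with a spike-in term. At 75 days Itgal read 51.4 in G93A-SOD1 cord, against at most 45.6 on the 4 disease-free arrays, and Itgb2l read 45.8 against at most 42.1. Both of these untested G93A-SOD1 values exceeded every disease-free array, as those of Itgax and Itgam also did at that age. The summed lymphocyte markers were 1449 in G93A-SOD1 cord at 75 days, the highest of the 6 arrays, against 1324 in WT-SOD1 and 1374 in nontransgenic cord. Of 6 tested lymphocyte markers 0 passed at 75 days, 6 lay above 0 and 3 above the disease-free range. Of all 6737 tested probe sets, 2862 lay above 0 at that age and 23.8% above that range. The part of the lymphocyte markers in the Itgal and Itgb2l values was not tested. Itga4, the alpha 4 chain that binds Vcam1, was at 13.8 to 18.6 and Itgae, an alpha chain of resident lymphocytes, at 19.9 to 21.9 over the 6 arrays, under the floor throughout.

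Markers of microglia and macrophages moved with the rise of Itgb5 and the higher Itgb2 and Itgax intensities. Their summed intensity over 15 genes was 9839 in G93A-SOD1 cord at 110 days, against 2925 in WT-SOD1 and 2729 in nontransgenic cord, and 11 of 12 tested markers rose. Lyz2 and Aif1 entered the test only through that G93A-SOD1 array, and 9 of the other 10 rose. At 75 days the sum was 2719 in G93A-SOD1 cord, against 2479 and 2373. Of the 15 markers, 2 were at or under the floor on every array. The sum of 11 lymphocyte markers was 1329 in G93A-SOD1 cord at 110 days, 1348 in WT-SOD1 and 1260 in nontransgenic cord, with 4 of them at or under the floor everywhere. The sum of 9 neutrophil markers was 755, 833 and 740 on the same arrays, with 2 at or under the floor. Markers of meninges and fibroblasts summed over 7 genes to 1642 in G93A-SOD1 cord at 110 days, 1250 in WT-SOD1 and 1096 in nontransgenic cord, and 2 of 5 tested rose (Igfbp2 by 1.68 and Fmod by 1.02). The part of the microglial and meningeal markers in the integrin values was not tested.

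Of the other beta chains, Itgb1, the common partner of most matrix-binding alpha chains, read 1354 in G93A-SOD1 cord at 110 days, 771 in WT-SOD1 and 1246 in nontransgenic cord. At 75 days it read 661 in G93A-SOD1 cord, against 955 in WT-SOD1 and 854 in nontransgenic cord. The G93A-SOD1 array was thus the highest of all 6 at the older age and the lowest at the younger. The differences of 0.47 ± 0.26 at 110 days and -0.45 ± 0.26 at 75 days did not pass (limma, adjusted p = 0.665 and 0.606), nor did the change of 0.92 ± 0.37 between them (adjusted p = 0.785). Without the nontransgenic array of 110 days the older difference was 0.81 and passed (adjusted p = 0.0219), while without the WT-SOD1 array it was 0.12. The change was 1.26 without the nontransgenic array of 110 days and passed (adjusted p = 0.0183), and 0.57 without the WT-SOD1 array. The second Itgb1 probe set read 216, 155 and 188 in G93A-SOD1, WT-SOD1 and nontransgenic cord at 110 days, a difference of 0.34 (adjusted p = 0.696). At 75 days that probe set read 124, 200 and 151, a difference of -0.49 (limma, adjusted p = 0.504). Its change between the ages was 0.82 (adjusted p = 0.678). Its identifier marks it as one that can cross-hybridise. Itgb4, the laminin-binding partner of alpha 6, read 234 in G93A-SOD1 cord at 110 days, 244 in WT-SOD1 and 334 in nontransgenic cord, a difference of -0.29 ± 0.21 (adjusted p = 0.804). Itgb3, the platelet and osteoclast chain, lay between 33.2 and 39.2 on all arrays and was not tested.

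Itgav, the alpha v chain and partner of the beta 5 chain, read 1402 in G93A-SOD1 cord at 110 days, 931 in WT-SOD1 and 1185 in nontransgenic cord. On the 75-day arrays Itgav read 757 in G93A-SOD1 cord, below 963 in WT-SOD1 and 948 in nontransgenic cord. The 110-day difference of 0.42 ± 0.17 had an unadjusted p of 0.0451 and did not pass (limma, adjusted p = 0.468), and the 75-day difference was -0.33 ± 0.17 (adjusted p = 0.565). The change of 0.75 passed without the nontransgenic array of 110 days, at 0.92 (adjusted p = 0.0367), and was 0.58 without the WT-SOD1 array. Another tested probe set of the gene gave -0.05 at 110 days and -0.31 at 75 days. Both its brightest probe set and that of Itgb1 carry identifiers that can cross-hybridise.

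Itga7, a laminin receptor chain of muscle and vessels, read 225 in G93A-SOD1 cord at 110 days, 209 in WT-SOD1 and 183 in nontransgenic cord. The difference was 0.20 ± 0.14 (limma, adjusted p = 0.787). The identifier of this probe set, too, marks it as one that can cross-hybridise. Another tested Itga7 probe set gave 0.08 at 110 days, with 170 in G93A-SOD1 cord, within the disease-free range of 159 to 186. Itga3, another laminin receptor chain, read 91.2, 91.7 and 99.0 on the same arrays, with a difference of -0.06 that its second probe set did not share in sign. Itga6, the laminin receptor chain that pairs with Itgb1 or Itgb4, was too dim to be tested and is named after its values were seen. It read 51.9 in G93A-SOD1 cord at 110 days, 23.9 in WT-SOD1 and 37.1 in nontransgenic cord, and 27.6 to 31.9 on the 75-day arrays. Only the 110-day G93A-SOD1 array and the nontransgenic array of that age, with WT-SOD1 at 75 days, were above the floor. Its 110-day difference of floored values was 0.61, a lower bound because the WT-SOD1 value lies under the floor, and no p is given. The alpha chains Itga2, Itga5 and Itga8 lay between 26.7 and 52.4 on all arrays and were not tested. Itgb1bp1, an adaptor that binds the tail of the beta 1 chain, read 171 in G93A-SOD1 cord at 110 days. It read 164 in WT-SOD1 and 155 in nontransgenic cord, a difference of 0.10. Another tested Itgb1bp1 probe set gave -0.27. It read 94.3 in G93A-SOD1 cord at 110 days and 93.5 at 75 days, against 102 to 127 on the disease-free arrays. A further one, too dim to be tested, read 48.4 and 48.0 in G93A-SOD1 cord, against 65.1 to 74.3.

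**Figure D2:**
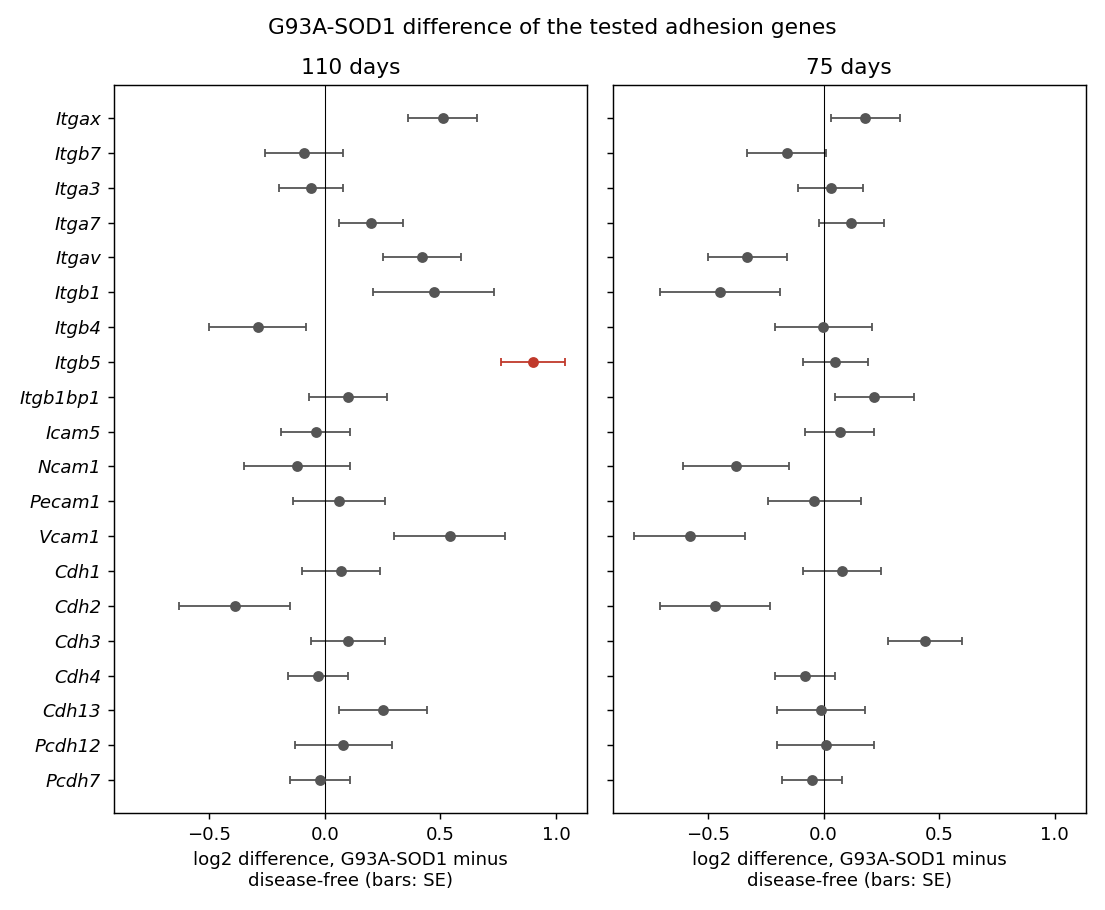
G93A-SOD1 minus disease-free cord on the log2 scale (horizontal axes) for the 20 tested adhesion genes, in order of class down the page, at 110 days (left) and 75 days (right). Points are differences, bars are SE, and red marks an adjusted p under 0.05. Itgb5 at 110 days, at 0.90, is the red point, and Vcam1 at 75 days lies lowest at -0.58.

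Vcam1, the endothelial counter-receptor of alpha 4 integrins that astrocytes can also carry, had the widest swing among the tested adhesion genes. It read 128 in G93A-SOD1 cord at 110 days, against 72.4 in WT-SOD1 and 107 in nontransgenic cord. In 75-day cord Vcam1 read 57.5 in G93A-SOD1 cord, against 94.3 in WT-SOD1 and 78.1 in nontransgenic cord. The G93A-SOD1 arrays were therefore the highest and the lowest of the 6. The difference was 0.54 ± 0.24 at 110 days and -0.58 ± 0.24 at 75 days (limma, adjusted p = 0.501 and 0.499), and the change of 1.12 ± 0.34 did not pass (adjusted p = 0.56). Without the nontransgenic array of 110 days the older difference was 0.82 and passed (adjusted p = 0.0391), as did the change of 1.40. Without the WT-SOD1 array of that age the older difference was 0.27 (adjusted p = 0.334) and the change 0.84, and neither passed. The change of 1.12 also passed in a fit with a term for the spike-in level. A second tested Vcam1 probe set gave 0.02 at 110 days, with 78.1 in G93A-SOD1 cord, 74.7 in WT-SOD1 and 79.9 in nontransgenic cord. At 75 days that probe set gave -0.33 (limma, adjusted p = 0.496), with 66.2, 81.3 and 85.6 in the same genotypes. Its change between the ages was 0.35 and did not pass.

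Endothelial markers showed no such excess. Their summed intensity over 10 genes was 1365 in G93A-SOD1 cord at 110 days, 1553 in WT-SOD1 and 1488 in nontransgenic cord, with 1 of them at or under the floor everywhere. Astrocyte markers summed over 7 genes to 12257, 9739 and 9535 on the same arrays. Without Gfap, the 1 astrocyte marker of 7 that rose, the sums were 7815, 7533 and 7952. These sums still hold Aqp4, which read 1309, 765 and 496, a difference of 1.09 that did not pass (limma, adjusted p = 0.132). Of the 7 astrocyte markers, 4 lay above 0 and 3 below. The part of the endothelial and astrocyte markers in the Vcam1 values was not tested. Pecam1, an endothelial and leukocyte junction protein, read 112 in G93A-SOD1 cord, 126 in WT-SOD1 and 91.5 in nontransgenic cord at 110 days, a difference of 0.06 (adjusted p = 1). Icam1, the counter-receptor of beta 2 integrins, read 18.0 in G93A-SOD1 cord at 110 days and at most 13.0 on the other 5 arrays. All of these lie under the floor and have no order. Icam2, an endothelial counter-receptor, was not tested and read 45.4 in G93A-SOD1 cord at 110 days, 54.7 in WT-SOD1 and 47.5 in nontransgenic cord.

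The neural Ig molecules showed no call. Ncam1, which binds its own kind on neurons and glia, read 334 in G93A-SOD1 cord at 110 days, 301 in WT-SOD1 and 438 in nontransgenic cord. The difference was -0.12 ± 0.23 (adjusted p = 0.985), and it was 0.15 without the nontransgenic array of 110 days and -0.39 without the WT-SOD1 array (adjusted p = 0.756 and 0.137). With a spike-in term it was -0.31. At 75 days Ncam1 read 274 in G93A-SOD1 cord, below 383 in WT-SOD1 and 333 in nontransgenic cord, with a difference of -0.38 (adjusted p = 0.613). Another tested Ncam1 probe set gave 0.01 at 110 days, with 80.0 in G93A-SOD1 cord, 75.8 in WT-SOD1 and 83.0 in nontransgenic cord. At 75 days that probe set gave -0.25. Icam5, a telencephalic neuronal molecule that binds beta 2 integrins, read 89.9, 96.3 and 88.7 in G93A-SOD1, WT-SOD1 and nontransgenic cord at 110 days, a difference of -0.04. L1cam, an axonal growth and fasciculation molecule, was not tested and read 48.2, 60.2 and 49.9 on those arrays. Ncam2, a relative of Ncam1, was not tested and read 42.3, 38.5 and 44.7. Its second probe set, also not tested, read 42.9, 43.6 and 44.0.

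Among cadherins, Cdh2, the N-cadherin of neurons and glia, read 224 in G93A-SOD1 cord at 110 days, 238 in WT-SOD1 and 363 in nontransgenic cord. In the 75-day cords it read 180 in G93A-SOD1 cord, 260 in WT-SOD1 and 237 in nontransgenic cord. Both G93A-SOD1 values lay below every disease-free array. Neuronal markers summed over 9 genes to 7064 in G93A-SOD1 cord at 110 days, 8738 in WT-SOD1 and 10147 in nontransgenic cord, with 0 past the test and 5 lower at an unadjusted p under 0.05. At 75 days the sum was 7869 in G93A-SOD1 cord, 8542 in WT-SOD1 and 8221 in nontransgenic cord. Markers of spinal cord and motor neurons summed over 9 genes to 2560, 3336 and 3713 in these genotypes at 110 days. Of 7 tested, 4 lay below 0 and 3 above, and 1 passed (Nefm at -0.82, limma adjusted p = 0.0301). Their 75-day sums were 3512, 3231 and 3139, with 0 past the test. The part of both neuronal lists, and of the cerebellar markers given above, in Cdh2 was not tested. The Cdh2 differences of -0.39 ± 0.24 and -0.47 ± 0.24 did not pass (limma, adjusted p = 0.698 at 110 and 0.566 at 75 days). Without the WT-SOD1 array of 110 days the older difference was -0.70 and passed (adjusted p = 0.0225), and without the nontransgenic array of that age it was -0.09.

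Cdh3, P-cadherin, was high on the G93A-SOD1 array at 75 days, where it read 281 against 197 in WT-SOD1 and 218 in nontransgenic cord. That value lay 0.36 log2 units above the disease-free range, and the difference of 0.44 ± 0.16 had an unadjusted p of 0.0299 (adjusted p = 0.495). At 110 days it read 205 in G93A-SOD1 cord, between 210 in WT-SOD1 and 175 in nontransgenic cord. Its second probe set, too dim to be tested, read 48.2 in G93A-SOD1 cord at 75 days, within the 55.5 of WT-SOD1 and the 44.4 of nontransgenic cord.

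Cdh1, the E-cadherin of epithelia, read 154 in G93A-SOD1 cord at 110 days, 164 in WT-SOD1 and 131 in nontransgenic cord. Cdh4, R-cadherin, read 137, 142 and 137 on those arrays. Cdh13, a cadherin with a lipid anchor in place of a membrane span, read 113 in G93A-SOD1 cord at 110 days, 83.0 in WT-SOD1 and 109 in nontransgenic cord, a difference of 0.25 (adjusted p = 0.826). Its WT-SOD1 value was the lowest of the 6. Pcdh7, a neural protocadherin, read 121, 125 and 120 on the 110-day arrays, and Pcdh12, an endothelial protocadherin, read 96.2, 108 and 76.5. Both protocadherin differences, -0.02 and 0.08, were smaller than their SE of 0.13 and 0.21. Cdh5, the VE-cadherin of endothelium, lay between 30.3 and 39.8 on all arrays. Cdh8, Cdh9 and the kidney cadherin Cdh16 lay under the floor throughout, at 8.5 to 23.1. Cdh6, Cdh10, Cdh11 and Cdh15 lay between 30.0 and 64.0 and were not tested. A further 8 probe sets list several protocadherin alpha symbols and name no gene here. The 6 of them that were bright enough gave 110-day differences of -0.39 to 0.08 with no call.

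**Figure D3:**
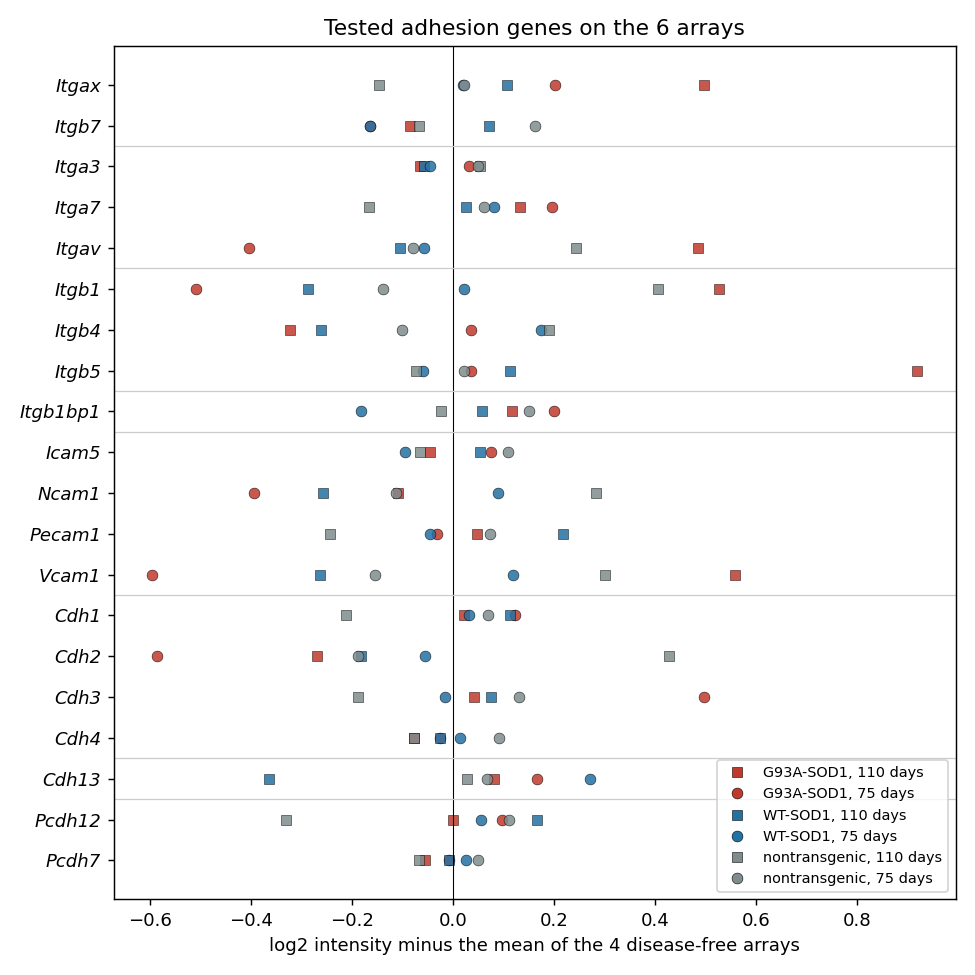
Log2 intensity of the 20 tested adhesion genes on each of the 6 arrays (horizontal axis), relative to the mean of the 4 disease-free arrays of the same gene, with genes grouped by class down the page. Red is G93A-SOD1, blue WT-SOD1 and grey nontransgenic, and squares are 110 and circles 75 days. The red square of Itgb5 lies farthest from its other points, while for Vcam1 and Itgb1 the red square and red circle lie at opposite ends.

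At 75 days 0 of the 20 adhesion genes passed, as did 0 of 6737 probe sets (0%). At an unadjusted p under 0.05, 1 adhesion gene was higher (Cdh3) and 1 lower (Vcam1), against 225 and 439 probe sets. The median difference was -0.005, beside -0.04 over all tested probe sets. The G93A-SOD1 value lay above all disease-free arrays for 5 of the 20 genes and below them for 5, where all probe sets gave 23.8% above and 34.7% below.

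The change of the G93A-SOD1 difference between the ages passed for 0 of the 20 genes, beside 0.416% of all tested probe sets. At an unadjusted p under 0.05 it was higher for 4 adhesion genes and lower for 0, against 282 and 138 probe sets. Its median was 0.07 over the adhesion genes. Noticed after the values were seen, 5 of the 20 genes (Cdh2, Itgav, Itgb1, Ncam1 and Vcam1) had their lowest value on the G93A-SOD1 array at 75 days and their highest disease-free value on the nontransgenic array at 110 days. That is 25%, beside 17.8% of all tested probe sets. The nontransgenic array of 110 days also had the highest ratio of 3′ to 5′ actin probe sets, 2.39 against 1.69 to 2.0 on the others. The G93A-SOD1 array of 75 days had the highest ratio for Gapdh, 1.49 against 1.08 to 1.3. The part of these ratios in these 5 genes was not tested.

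Age and the wild-type transgene gave no call among the adhesion genes. In disease-free cord at 110 against 75 days 0 of 20 passed, beside 0.0148% of all tested probe sets, and 0 had an unadjusted p under 0.05. Differences ran from -0.34 for Cdh13 to 0.24 for Cdh2. For WT-SOD1 against nontransgenic 0 of 20 passed, beside 0.104% of all tested probe sets, and again 0 had an unadjusted p under 0.05. Those differences ran from -0.27 for Itgb1 to 0.22 for Pcdh12, and Itgb5 stood at 0.05.

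Genes of connected pathways were read from lists. Of 7 tested integrin ligands among 19 listed, 0 rose and 0 fell at 110 days, with a median difference of 0.15. Thbs2, a matricellular thrombospondin, read 98.8 in G93A-SOD1 cord, 51.7 in WT-SOD1 and 63.2 in nontransgenic cord (difference 0.79 ± 0.16, adjusted p = 0.0882). It entered the test only through that G93A-SOD1 array, and the other 6 ligands had a median of 0.07. Fn1, fibronectin, gave 0.29 (adjusted p = 0.744). Of 16 tested integrin adaptors and kinases among 20, 0 passed and the median was 0.06. Fermt3, the kindlin of blood cells, gave 0.50 and Lcp1, an actin-bundling protein of leukocytes, gave 0.47 (adjusted p = 0.203 and 0.362). Fermt3, too, entered only through the 110-day G93A-SOD1 array.

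Of 13 tested catenins and junction proteins among 16, 0 passed, with a median of 0.14 (0.12 without F11r, which entered only through the 110-day G93A-SOD1 array). Gjb6, an astrocyte connexin, gave -0.48 and Tjp1, a tight junction scaffold, 0.38 (adjusted p = 0.411 and 0.611). Of 15 tested neural Ig molecules among 16, 0 passed, with a median of -0.03. Chl1, a close relative of L1cam, read 151 in G93A-SOD1 cord at 110 days, 96.0 in WT-SOD1 and 69.6 in nontransgenic cord, a difference of 0.88 ± 0.21 (adjusted p = 0.135). It passed with a WT-SOD1 genotype term (0.95) and with a spike-in term (1.05). It did not pass with scaling, quantile normalization, the other floor, the other filters or cross-hybridising probe sets left out (0.87 to 0.88). Without the WT-SOD1 array of 110 days the difference was 1.12, and without the nontransgenic array of that age it was 0.65. Without either disease-free array of 75 days it stayed at 0.88. Thy1, a surface glycoprotein of neurons, gave -0.48 (adjusted p = 0.665).

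Selectins, CD44 and tetraspanins held the other calls. Of 11 tested genes among 15, 3 rose and 0 fell at 110 days, with a median of 0.36. Over all tested probe sets 1.38% rose and 0.134% fell. All 3 are tetraspanins, membrane proteins that associate with integrins. The tetraspanins Cd37, Cd81, Cd82 and Cd151 did not pass, at 0.36, 0.22, 0.19 and 0.07. Cd53, a tetraspanin of leukocytes, read 208 in G93A-SOD1 cord, 59.7 in WT-SOD1 and 72.6 in nontransgenic cord (1.66 ± 0.16, limma adjusted p = 0.00433). It entered the test only through that G93A-SOD1 array, and without it 2 of 10 rose, with a median of 0.29. Cd63, of lysosomes and exosomes, read 822, 324 and 271 on the same arrays (1.47, adjusted p = 0.00706). Cd9 read 437, 205 and 198 (1.12, adjusted p = 0.00869). In each, the G93A-SOD1 array lay far above both disease-free arrays, and none of the 3 passed in the fit with no filter on level. At 75 days 0 genes of the 5 lists passed. The sum of microglial markers given above moved with these 3 genes as well, and its part in them was not tested.

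**Figure D4:**
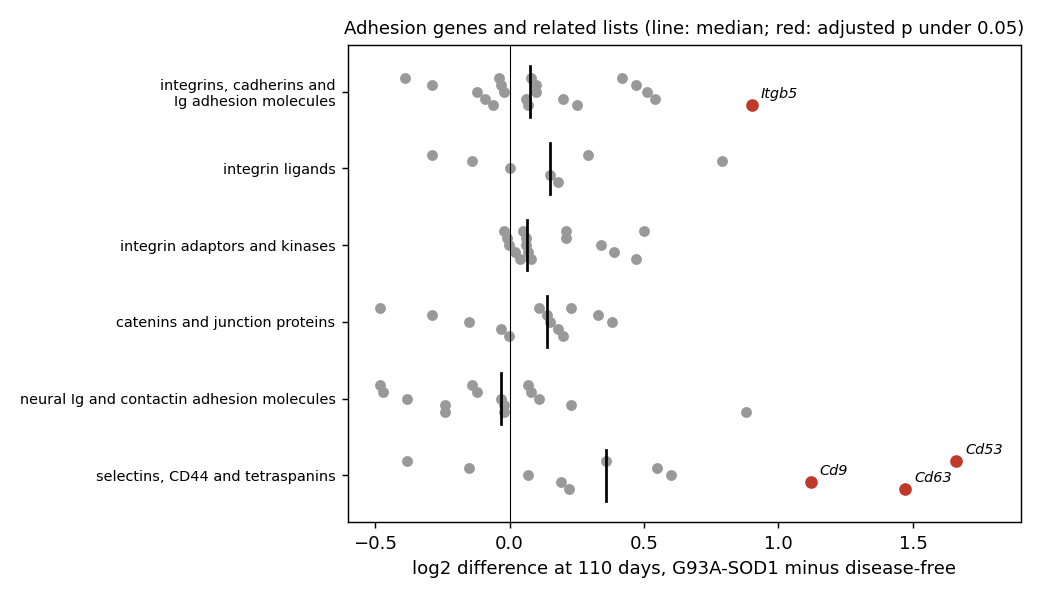
G93A-SOD1 minus disease-free cord at 110 days on the log2 scale (horizontal axis) for the tested adhesion genes (top row) and 5 lists of connected genes. Each point is 1 gene, the vertical line is the median of the row, and red marks an adjusted p under 0.05. Itgb5 in the top row and Cd9, Cd63 and Cd53 in the bottom row are red, and 0 genes are red in the other 4 rows.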

How the data were processed

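Poly(A) RNA was labelled and hybridised once per array, per the labels. The values deposited are linear intensities of probe sets. The probe summary and array scaling that the authors applied are not stated in the sources used here. Intensities were used as deposited, with a floor at the 25th percentile (31.0), on the log2 scale. Of 12422 probe sets, 66 Affymetrix controls aside, 6737 exceeded the pooled median of 79.7 on at least 1 array and were tested. Symbols came from the platform annotation: 1 symbol for 10833 probe sets, several for 396, and none here for 1193.

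limma 3.58.1 in R 4.3.3 (lmFit, eBayes) with Benjamini-Hochberg adjustment at 0.05 fitted 4 means, the G93A-SOD1 array and the disease-free arrays of each age, with 2 residual degrees of freedom and prior degrees of freedom of 5.13. The WT-SOD1 against nontransgenic comparison used the 4 disease-free arrays and an age term, with 1 residual degree of freedom. Its prior degrees of freedom were infinite, so that all probe sets shared 1 SE of 0.19. The fit was tested on simulated data. With 6 arrays the number of arrays limits the precision.

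Named genes were the leukocyte integrins, the Ig molecules, members that passed, the brightest 3 and the most extreme members of each comparison, members at least 0.5 log2 units outside the disease-free range, members whose probe sets differ in sign, and up to 4 genes of each connected list. Members and lists were chosen with earlier results of these data known. Alternatives were another floor, 2 other filters, scaling to 1 median, quantile normalization, terms for WT-SOD1 and spike-in level, probe sets without cross-hybridisation, every probe set counted, and each disease-free array left out.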

Additional observations from a re-analysis of the deposited data

Results flagged for a closer look

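Cd53, the leukocyte tetraspanin, had a G93A-SOD1 difference that differed between the 2 ages by the test of the change itself. The change between 75 and 110 days was 1.63 on the log2 scale (limma, adjusted p = 0.0492). At 110 days Cd53 read 208 in G93A-SOD1 cord, 59.7 in WT-SOD1 and 72.6 in nontransgenic cord, and at 75 days it read 59.6, 60.8 and 56.3. Cd53 entered the test only through the 110-day G93A-SOD1 array, where it is high, so the test is not independent of that value. With arrays scaled to 1 median the change was 1.60 and did not pass. It did not pass either, at 1.63, with the filter on the mean level, the floor at the 40th percentile or no filter on level. The summed microglial markers, 9839 in G93A-SOD1 cord at 110 days against 2719 at 75 days, moved with it, and their part was not tested. Among the adhesion genes themselves 0 changes passed.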

How the results depend on the processing

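Calls among the adhesion genes were few under every setting run. At 110 days the count of 1 became 0 with the floor set to the 40th percentile, and 1 to 3 when a disease-free array was left out. With no filter on level the 1 gene called was Itgb2, whose disease-free arrays all sit at the floor, and not Itgb5. The change between ages gave 1 adhesion gene with no filter on level (Itgb2 again), 1 with the spike-in term (Vcam1) and 0 to 3 on leaving an array out. For the 75-day, age and WT-SOD1 comparisons it stayed at 0 under the alternatives run. Over all probe sets, the 102 calls at 110 days became 66 with the higher floor, 42 with no filter on level, 266 with the spike-in term and 148 to 591 on leaving an array out. The 0 calls at 75 days became 54 with the WT-SOD1 term, 50 with no filter, 1 with the spike-in term and 13 to 116 on leaving an array out. The 28 calls for the change became 70 with the WT-SOD1 term, 2 with scaling to 1 median, 16 with the filter on the mean, 3 with the higher floor, 76 with no filter, 90 with the spike-in term and 51 to 135 on leaving an array out. The 1 call for age became 0 with no filter and 2 to 17 on leaving an array out. The 7 calls for WT-SOD1 became 0 with scaling, 0 with the higher floor and 0 with no filter. The cause was not tested. A lone array left at an age was assumed to vary like the others. Leaving out arrays was not run for WT-SOD1 against nontransgenic, which would have no residual degrees of freedom. No paired analysis was possible because each genotype and age had 1 array. Over 588 alternatives of 56 single values and medians, 554 kept their call, 23 newly passed, 9 no longer passed and 2 medians moved. Values that did not pass could change sign, as Itgb7 did at 110 days, from -0.09 to 0.03 with the spike-in term. Signal near the floor limits what can be seen for the 23 untested adhesion genes.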
